A study of Homo sapiens with 12 samples.

Results

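VPREB1, IGLL1, IGLL5 and VPREB3 are 4 neighbouring genes of human chromosome 22 that encode immunoglobulin light chain-like proteins of B-lineage cells. They are 4 of the 28278 genes in the deposited count table, taken by name over all 4 lines of the study. The members were chosen by their measured levels in these same libraries, so the differences of the 4 genes between lines are given as a description, with no test. The lines are OCI-Ly7, an established human diffuse large B-cell lymphoma line, and 3 CRISPR derivatives of it, all grown in IMDM medium with fetal bovine serum and no further agent named. The wild-type line (WT) has unedited EZH2 and KMT2D. The EZH2 mutant carries EZH2 Y646N, a gain-of-function change. The KMT2D mutant is kmt2d-/-, and the double mutant is kmt2d-/- with EZH2 Y646N. WT, KMT2D mutant and double mutant have 3 libraries each. The EZH2 mutant has 2, because its replicate 3 has no column in the table and was not analysed here. Whether a mutant line is 1 clone or a pool is not given in the sources used here. The labels do not state separate cultures for the replicates, so that errors and p-values cover the spread among these libraries and no more.

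A developing B cell first pairs its immunoglobulin heavy chain with a surrogate light chain made of VPREB1 and IGLL1 (lambda 5). This pre-B cell receptor signals through CD79A, CD79B and SYK, and it is replaced once a conventional kappa or lambda light chain is made. VPREB1 and IGLL1 are known as genes of pro-B and pre-B cells, switched on there by EBF1 and TCF3, and mature B cells and their lymphomas usually have little of either. VPREB3 is a related protein that stays in the cell and binds newly made heavy chains, and it continues to be made in germinal centre B cells. EZH2 places the repressive mark of Polycomb on the tail of histone H3, and KMT2D places an activating one, mainly at enhancers.

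The sequences bear on what the counts can tell apart. The deposited table names no genome build, and the positions given here are those of GENCODE 29 on GRCh38. VPREB1 (ENSG00000169575.4) lies at chr22:22244675-22245515 on the plus strand. IGLL5 (ENSG00000254709.7) lies at chr22:22887780-22896107 on the plus strand, inside the lambda light chain locus. IGLL1 (ENSG00000128322.6) lies at chr22:23573125-23580308 and VPREB3 (ENSG00000128218.7) at chr22:23752743-23754468, both on the minus strand. MARS-seq counts come from the 3′ ends of transcripts. The last exon of IGLL5, chr22:22895375-22895825, occupies the position of IGLC1, the first lambda constant gene, and its 451 bases are all shared with IGLC1. A count listed under IGLL5 can therefore be a read of IGLL5 or of a conventional lambda chain that uses IGLC1, and these cannot be told apart here. The coding part of that exon, 317 bases, is identical at 302 bases in IGLC2, 301 in IGLC3, 297 in IGLC7 and 282 in IGLL1. The longest stretch that IGLL5 shares base for base is 97 bases with IGLC2, 77 with IGLC3, 67 with IGLL1 and 64 with IGLC7. How the authors' counting treated reads that fit more than 1 of these genes is not given in the sources used here. The last 90 coding bases show how close IGLL1 and IGLL5 are at the counted end. Capitals mark the 6 bases at which IGLL1 differs, and IGLC1 and IGLC2 differ from IGLL5 at 0 of the 90.
IGLL5: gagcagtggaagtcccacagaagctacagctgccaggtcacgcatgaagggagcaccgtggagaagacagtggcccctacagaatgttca
IGLL1: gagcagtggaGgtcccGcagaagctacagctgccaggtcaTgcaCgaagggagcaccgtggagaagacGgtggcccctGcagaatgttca

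Promoters are shown because VPREB1 and VPREB3 differed between lines in opposite directions. The sequences are RefSeq's (GRCh38.p14), cut to the bases upstream of every annotated start, and are written in the direction of transcription. VPREB1 is chr22:22244536-22244674 (plus), IGLL1 is chr22:23580309-23580540 (minus) and VPREB3 is chr22:23754469-23754675 (minus). Capitals mark matches to 3 motifs searched on both strands in the 250 bases before the RefSeq start: CAGGTG, an E-box that TCF3 can bind; CCCNNGGG, the palindrome that EBF1 binds; and the octamer ATGCAAAT, bound by POU2F1 and POU2F2 with their co-activator POU2AF1.
VPREB1: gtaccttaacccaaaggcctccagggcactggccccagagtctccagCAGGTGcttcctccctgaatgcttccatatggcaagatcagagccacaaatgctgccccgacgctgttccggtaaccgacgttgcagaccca
IGLL1: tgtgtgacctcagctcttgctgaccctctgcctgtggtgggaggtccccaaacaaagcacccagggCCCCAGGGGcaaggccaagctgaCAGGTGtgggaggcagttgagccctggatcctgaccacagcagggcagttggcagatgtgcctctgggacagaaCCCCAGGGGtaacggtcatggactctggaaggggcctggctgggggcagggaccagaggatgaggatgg
VPREB3: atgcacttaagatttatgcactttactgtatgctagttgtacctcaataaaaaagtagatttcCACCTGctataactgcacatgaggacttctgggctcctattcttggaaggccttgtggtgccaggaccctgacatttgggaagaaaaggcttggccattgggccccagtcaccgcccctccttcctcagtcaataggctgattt
Nearer the RefSeq start, VPREB1 has CCCNNGGG 29 bases before it and VPREB3 has the octamer, here on the other strand, 47 bases before it.
VPREB1 site: tgggccagCCCTTGGGgaccccag
VPREB3 site: ataggctgATTTGCATgctctgtt
All 3 promoters held the E-box, which 17.5% of the 35116 RefSeq promoters hold. CCCNNGGG was in VPREB1 and IGLL1, the latter with 4 matches that overlap in pairs, against 17.1% of all promoters. The octamer was in VPREB3 alone of the 3, against 1.63% of all promoters. A match describes letters only, and nothing here measured binding.

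The libraries held between 1118710 and 3107871 counts, so that 3 counts amount to 0.965 counts per 1e6 (CPM) in the deepest and 2.68 in the shallowest. Levels below are CPM after scaling by TMM factors, which adjust for differences in library composition. The sums of cell type markers are the exception and are CPM of the library total, without these factors. The 6 B-cell markers examined, MS4A1, CD79A, CD79B, PAX5, CD22 and BLK, all had counts and summed to between 6090 and 10568 CPM per library, with means ± SD of 8075 ± 1321 (WT, n = 3), 9268 ± 1839 (EZH2 mutant, n = 2), 6473 ± 469 (KMT2D mutant, n = 3) and 7565 ± 300.5 (double mutant, n = 3). Markers of T and NK cells summed to at most 1.22 CPM, of myeloid cells to at most 1.85 and of fibroblasts and epithelial cells to at most 1.41 in any library. Counts of EZH2 (76.9 ± 7.52, 64.6 ± 14.6, 65.2 ± 0.606 and 86.9 ± 4.92 CPM in the same order of lines) and KMT2D (33.5 ± 9.32, 30.3 ± 15.4, 38.8 ± 3.80 and 46.2 ± 17.1) do not check the genotypes, because 3′ counts do not cover a point mutation and can persist from a disrupted gene.

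VPREB1, the component of the surrogate light chain that resembles a variable domain, was highest in the KMT2D mutant and nearly absent from the double mutant. Its level was 6.22, 4.08 and 6.90 CPM in the 3 WT libraries and 42.6, 32.2 and 42.5 in the KMT2D mutant. The EZH2 mutant had 2.05 and 1.99 CPM, and the double mutant 0.493, 1.51 and 0. The lines therefore ordered as KMT2D mutant, WT, EZH2 mutant and double mutant, and no 2 neighbours in this order shared any part of their range. The means ± SD were 39.1 ± 5.98 (n = 3), 5.73 ± 1.47 (n = 3), 2.02 ± 0.0444 (n = 2) and 0.668 ± 0.770 CPM (n = 3). The counts behind the lower 2 lines were few, 6 in all for the EZH2 mutant and 3 for the double mutant, against 41 in WT and 299 in the KMT2D mutant. In bulk counts, fewer cells with the RNA and less RNA per cell cannot be told apart.

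Ratios of summed VPREB1 counts, scaled for depth, carry exact 95% intervals that cover counting error only. The KMT2D mutant was 7.23-fold above WT (interval 5.20 to 10.3), and the EZH2 mutant was 2.79-fold below WT (1.18 to 8.05). The double mutant was 9.47-fold below WT (3.02 to 47.8) and 68.4-fold below the KMT2D mutant (23.2 to 334). The double mutant was 3.39-fold below the EZH2 mutant (0.724 to 21.0), on 3 against 6 counts. VPREB1 entered the fit through 2 WT and 3 KMT2D mutant libraries, since 0 of the 5 libraries with EZH2 Y646N reached the minimum. The fitted log2 changes were 2.80 (SE 0.28) for the KMT2D mutant and -1.46 (SE 0.57) for the EZH2 mutant, both against WT. The sum of these single-mutant changes is 1.33 on the log2 scale, whereas the fitted change of the double mutant was -3.12 (SE 0.61), a value that rests on its 3 counts.

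**Figure D1:**
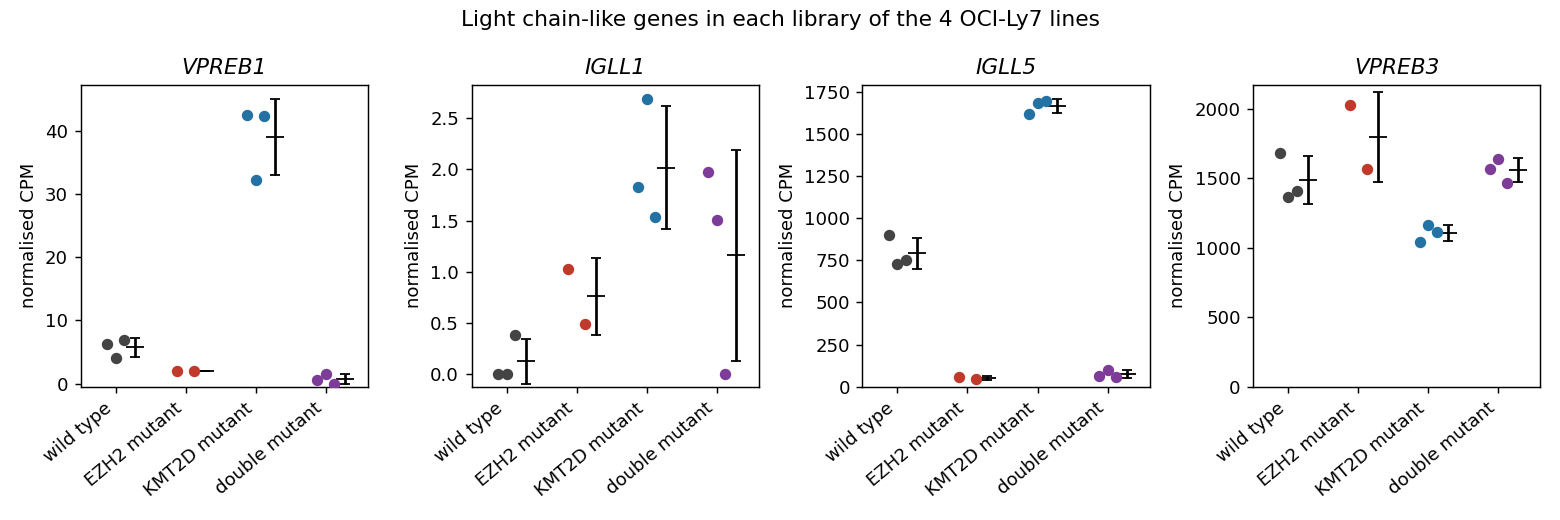
Normalised CPM (linear axis, a separate scale for each gene) of VPREB1, IGLL1, IGLL5 and VPREB3 in each library of the 4 lines, with 1 point per library and the mean ± SD beside the points. VPREB1 and IGLL5 are highest in all 3 KMT2D mutant libraries (up to 42.6 and 1695 CPM), whereas VPREB3 is lowest there (1045 to 1161 CPM); IGLL1 stays under 3 CPM throughout.

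IGLL1, the component of the surrogate light chain that resembles a constant domain, was close to the limit of these libraries. It had 0, 0 and 1 counts in WT and 6, 4 and 4 in the KMT2D mutant. The EZH2 mutant had 1 and 1 counts, the double mutant 4, 2 and 0. Each KMT2D mutant library held more IGLL1 than any WT library, at 1.83, 2.69 and 1.53 CPM against 0, 0 and 0.383, and the double mutant spanned 0 to 1.97 CPM. Means ± SD were 0.128 ± 0.221 CPM (WT, n = 3), 0.760 ± 0.373 (EZH2 mutant, n = 2), 2.01 ± 0.599 (KMT2D mutant, n = 3) and 1.16 ± 1.03 (double mutant, n = 3). IGLL1 did not reach the minimum count for testing.

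On summed counts of IGLL1, 14 in the KMT2D mutant against 1 in WT, the ratio was 13.9 with a counting interval from 2.11 to 587. The double mutant was 8.66-fold above WT (1.05 to 398) on 6 counts, and the EZH2 mutant 4.89-fold above it (0.255 to 289) on 2. The double mutant stood at 0.624 times the KMT2D mutant (0.197 to 1.73) and at 1.77 times the EZH2 mutant (0.316 to 17.9). Leaving out 1 library moved the ratios to between 8.30 and 15.3 for the KMT2D mutant (lowest without WT replicate 2, highest without KMT2D mutant replicate 3), 4.81 and 13.1 for the double mutant and 2.93 and 7.49 for the EZH2 mutant, all against WT. The ranges were 0.982 to 2.68 for the double mutant against the EZH2 mutant and 0.346 to 0.945 against the KMT2D mutant. Double mutant replicates 1 and 3 set the ends of the 3 double mutant ranges, WT replicate 2 and EZH2 mutant replicate 2 those of the EZH2 mutant. No ratio against WT can be formed without WT replicate 3, which holds the single WT count. WT had 1 count of IGLL1 beside 5685 of its close relative IGLL5, and the EZH2 mutant had 2 beside 147. The KMT2D mutant had 14 beside 12261, the highest of both genes, and the double mutant had 6 beside 358. The place of misassigned IGLL5 reads among these IGLL1 counts was not tested.

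IGLL5, the lambda-like gene that shares its last exon with IGLC1, was abundant in WT and the KMT2D mutant and low wherever EZH2 Y646N was present. It stood at 898, 726 and 753 CPM in WT and at 1621, 1687 and 1695 in the KMT2D mutant. The EZH2 mutant had 59.4 and 44.2 CPM and the double mutant 63.7, 99.7 and 56.4. The KMT2D mutant lay above WT and WT above both EZH2 Y646N lines with no overlap, but the ranges of the EZH2 mutant and the double mutant overlapped. Means ± SD were 1668 ± 40.5 CPM in the KMT2D mutant, 792 ± 93.0 in WT, 73.2 ± 23.2 in the double mutant and 51.8 ± 10.8 in the EZH2 mutant.

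Summed counts of IGLL5 were 15.8-fold lower in the EZH2 mutant than in WT (counting interval 13.4 to 18.7) and 2.14-fold higher in the KMT2D mutant (2.07 to 2.21). The double mutant was 11-fold below WT (9.89 to 12.3) and 23.5-fold below the KMT2D mutant (21.2 to 26.2). Against the EZH2 mutant it stood 1.44-fold higher (1.18 to 1.75), with overlapping libraries. The fitted log2 change there was 0.51 (SE 0.22), and 0.24 to 0.69 with 1 library left out. The fitted log2 changes against WT were -3.96 (SE 0.22) for the EZH2 mutant, 1.07 (SE 0.16) for the KMT2D mutant and -3.45 (SE 0.18) for the double mutant. The single-mutant changes of IGLL5 sum to -2.89, and the interaction, the departure of the double mutant from that sum, was -0.56 (SE 0.27). No count of a lambda or kappa constant gene could be set beside IGLL5, because these genes were not analysed here, and the 2 rows named as immunoglobulin segments held 0 counts. Which share of the IGLL5 counts belongs to conventional lambda chains was not tested.

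VPREB3, the intracellular heavy chain-binding relative, was abundant in every line and varied least of the 4 genes. Its level was 1687, 1366 and 1410 CPM in WT and 2026 and 1571 in the EZH2 mutant. The KMT2D mutant had 1045, 1161 and 1112 CPM, and the double mutant 1571, 1643 and 1470. The KMT2D mutant libraries were below those of every other line, and the other 3 lines overlapped with each other. The means ± SD were 1799 ± 322 CPM in the EZH2 mutant, 1561 ± 87.2 in the double mutant, 1487 ± 174 in WT and 1106 ± 58.5 in the KMT2D mutant. The fitted log2 change of VPREB3 was -0.43 (SE 0.13) in the KMT2D mutant against WT and 0.50 (SE 0.13) in the double mutant against the KMT2D mutant. It was 0.27 (SE 0.14) in the EZH2 mutant, 0.07 (SE 0.13) in the double mutant, both against WT, and -0.20 (SE 0.14) in the double mutant against the EZH2 mutant. VPREB3 thus differed in the opposite direction to VPREB1 and IGLL5 in the KMT2D mutant, on counts of 1730 to 4018 per library. Within each line VPREB3 was highest in the library with the lowest total. These were WT replicate 1 (1687 CPM), EZH2 mutant replicate 1 (2026), KMT2D mutant replicate 2 (1161) and double mutant replicate 2 (1643). With 1 library left out, the change in the KMT2D mutant against WT ranged from -0.49 to -0.33, the latter without WT replicate 1. The place of depth in the VPREB3 differences was not tested.

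**Figure D2:**
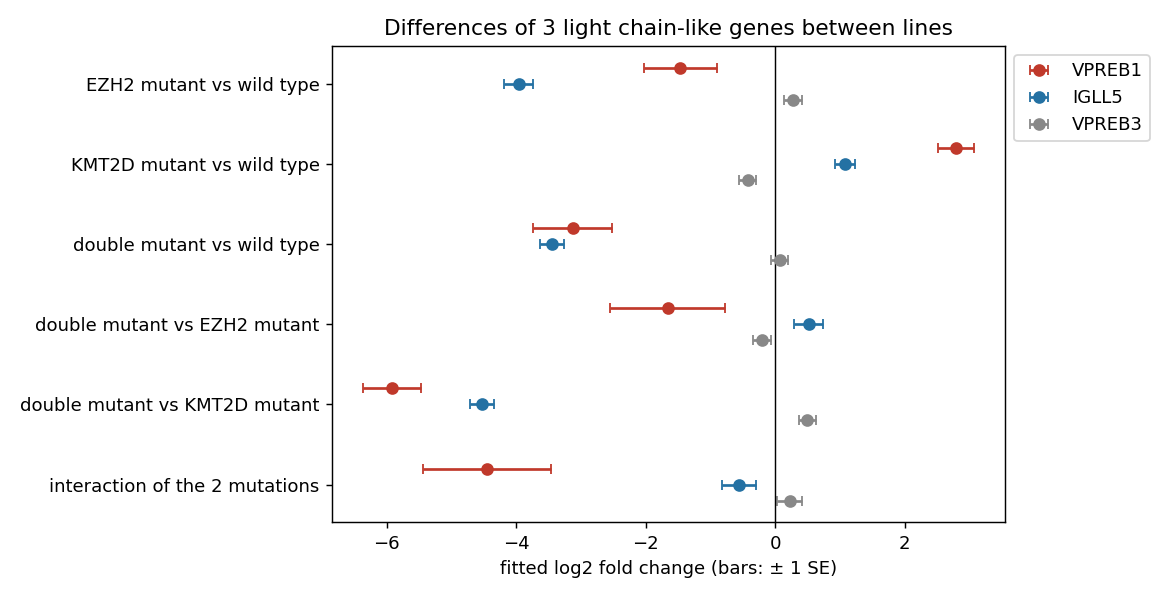
Fitted log2 fold changes of VPREB1, IGLL5 and VPREB3 in the 5 pairs of lines and for the interaction of the 2 mutations, with bars of ± 1 SE. VPREB1 and IGLL5 lie below 0 in both comparisons of an EZH2 Y646N line with WT and above 0 for the KMT2D mutant against WT (2.80 and 1.07), where VPREB3 is at -0.43.

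Of the 3 genes that reached the minimum count, 2 had no overlap between libraries of the EZH2 mutant and WT, VPREB1 and IGLL5, both lower, in a comparison where 55.0% of all tested genes did not overlap. Between KMT2D mutant and WT, 3 of 3 did not overlap (VPREB1 and IGLL5 higher, VPREB3 lower), beside 26.9% of all tested genes. Between double mutant and WT 2 of 3 did not overlap, VPREB1 and IGLL5, both lower, beside 38.3% of all. Between double mutant and EZH2 mutant only VPREB1 of the 3 did not overlap, and it was lower, beside 30.5% of all. Between double mutant and KMT2D mutant 3 of 3 did not overlap (VPREB1 and IGLL5 lower, VPREB3 higher), beside 53.3% of all. The comparisons share libraries, the 3 against WT its 3 WT libraries, so they are not independent of each other, and the genes were chosen for these differences, so nothing is read from the shares. Over the 11 libraries the log2 CPM of VPREB1 and IGLL5 correlated with a Pearson r of 0.894, VPREB1 and VPREB3 with -0.773 and IGLL5 and VPREB3 with -0.739, values that mostly describe the line differences given above.

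The genes lie in 1.51 Mb of chromosome 22 that holds 133 annotated genes, most of them immunoglobulin segments. Besides the light chain-like genes, 22 of these were in the table, 13 had a count and 4 were tested. With the nearest tested gene on either side of the stretch, 6 neighbours could be set beside them, and none of the 6 was lower in any comparison by edgeR's test. In the EZH2 mutant 2 of the 6 passed, in the double mutant against WT 2, between double and KMT2D mutant 2 and in the KMT2D mutant 0, beside 32.3%, 23.7%, 41.9% and 7.66% of all tested genes. GNAZ, a G protein subunit 174 kb after IGLL5, rose in the EZH2 mutant by 0.64 (SE 0.15, edgeR adjusted p = 0.0031), from 105 ± 12.8 to 164 ± 17.2 CPM. CHCHD10, a mitochondrial protein gene 11.4 kb after VPREB3, rose by 1.03 (SE 0.14, edgeR adjusted p = 2.4e-05), from 629 ± 76.0 to 1281 ± 183 CPM. Both were also higher in the double mutant than in WT, by 0.39 (SE 0.13) and 0.66 (SE 0.13), and than in the KMT2D mutant, by 0.72 (SE 0.14) and 0.71 (SE 0.13). The call of GNAZ in the double mutant against WT was lost under 13 of 17 alternatives, RLE and upper-quartile scaling, DESeq2 and leaving out any double mutant library among them. By edgeR none of the 6 passed between KMT2D mutant and WT (1 had an unadjusted p under 0.05, and DESeq2 called 0), where the log2 change was -0.33 (SE 0.14) for GNAZ and -0.06 (SE 0.12) for CHCHD10. PRAMENP, 200.7 kb before VPREB1, GUSBP11, 35.4 kb before VPREB3, FBXW4P1 and BCR passed in none of the comparisons, and BCR and FBXW4P1 had means under 6 CPM.

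**Figure D3:**
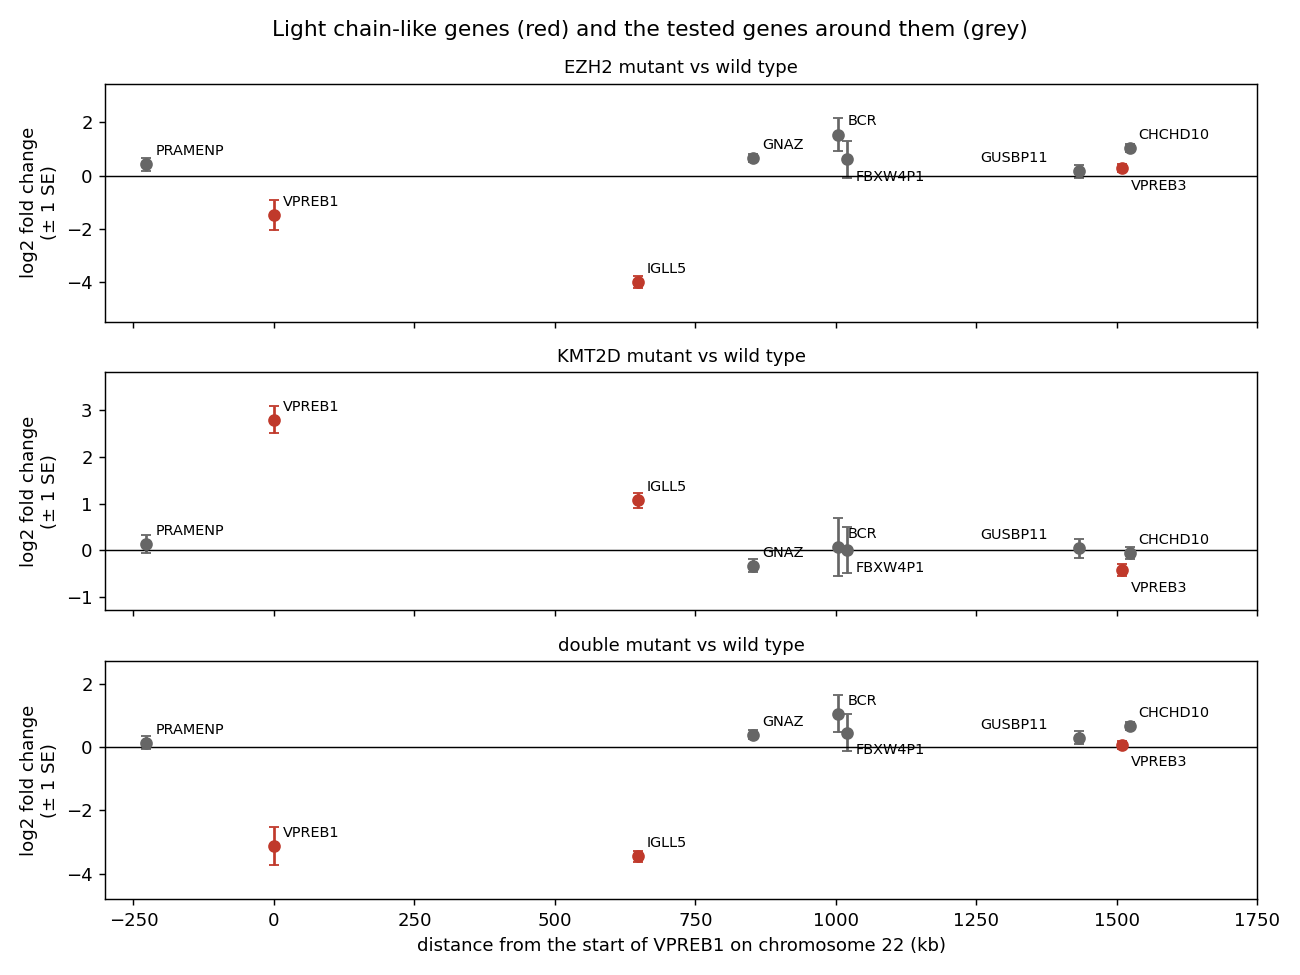
Fitted log2 fold change (± 1 SE, scale differs by panel) of VPREB1, IGLL5 and VPREB3 (red) and the 6 tested neighbours (grey) against distance from the start of VPREB1, for each mutant line against WT. IGLL5 at -3.96 and VPREB1 at -1.46 lie below 0 in the EZH2 mutant, in which the neighbours lie between 0.16 and 1.54.

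The other parts of the pre-B cell receptor and its signalling chain are represented by 13 tested genes of 16. In the EZH2 mutant 2 rose, 0 fell and 11 did not pass, with a median log2 change of 0.012 beside -0.04 over all 8813 tested genes, of which 32.3% passed. VAV1, a guanine nucleotide exchange factor below the receptor, rose from 142 ± 18.5 to 266 ± 49.0 CPM, a log2 change of 0.90 (SE 0.17, edgeR adjusted p = 0.00069). CD79B, a signalling chain of the receptor, rose by 0.75 (SE 0.16). In the KMT2D mutant 0 of the 13 rose and 1 fell (median 0.19 beside 0.00, 7.66% of all genes passing). That gene was CD79A, the other signalling chain, from 4029 ± 853 to 2093 ± 221 CPM, a log2 change of -0.94 (SE 0.16, edgeR adjusted p = 0.00086). CD79A lies on the long arm of chromosome 19, whose 373 tested genes had a median log2 change of -0.72 in the KMT2D mutant (189 fell and 5 rose), and the place of that shift in its change was not tested. The share of 7.66% stands for 395 lower and 280 higher genes, and those 189 and 5 are among them.

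Between double mutant and WT 0 of the 13 signalling genes passed edgeR's test (median -0.0026 beside -0.01, 23.7% of all genes passing), 1 had an unadjusted p under 0.05 and DESeq2 called 0. Against the EZH2 mutant 1 fell and 12 did not pass (median -0.21 beside -0.01, 2.29% of all), CD79B (log2 change -0.67, SE 0.16), a call lost under 8 of 17 alternatives, among them leaving out EZH2 mutant replicate 1, KMT2D mutant replicate 1 or 3, or any double mutant library. Against the KMT2D mutant 2 rose and 3 fell (median -0.22 beside -0.02, 41.9% of all). CD79A rose by 1.07 and VAV1 by 0.42, the latter a call lost under 7 of 17 alternatives, upper-quartile scaling, DESeq2, any KMT2D mutant library and double mutant replicates 1 and 2 among them. BTK, a kinase below the receptor, and PIK3AP1, an adaptor to PI3 kinase, were among those that fell (log2 changes -0.54 and -1.47). On the long arm of chromosome 19 the median in that comparison was 0.82. SYK and BLNK, the kinase and the adaptor closest to the receptor, did not pass against WT in any mutant. BLNK did fall in the double mutant against the KMT2D mutant (log2 change -0.48, SE 0.16), a call lost under 3 of 17 alternatives.

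Transcription factors of the early B lineage, EBF1 and TCF3 among them, are represented by 25 tested genes of 29. In the EZH2 mutant 4 rose and 5 fell (median -0.24, 32.3% of all genes passing). IKZF2, among those that rose, had means of 1.07 CPM in WT and 4.76 in the EZH2 mutant. The WT mean lay under the minimum of 4.62 CPM, so this call is a description only. That split depended on the scaling and on single libraries: 1 rose and 9 fell with upper-quartile factors, 2 rose and 2 fell without EZH2 mutant replicate 1, 2 rose with only the groups compared, and 1 rose without WT replicate 2 or without WT replicate 3. LEF1, which drives pre-B and leukaemic gene programmes, fell from 208 ± 16.2 to 78.6 ± 24.3 CPM, a log2 change of -1.36 (SE 0.18, edgeR adjusted p = 2e-05). IRF4, which helps to end pre-B cell receptor signalling, fell (log2 change -0.67, SE 0.15), although not without EZH2 mutant replicate 1. SPIB, an ETS factor of mature B cells, rose from 30.1 to 63.4 CPM, a log2 change of 1.10 (SE 0.24). In the KMT2D mutant 1 rose, ETS1, by 0.72 (SE 0.19), and 2 fell (median 0.19, 7.66% of all). The genes that fell were POU2F2, an octamer-binding factor (log2 change -1.18, SE 0.16), and SPIB (log2 change -1.08, SE 0.24), and both lie on the long arm of chromosome 19. The call of ETS1 was lost without any 1 of the WT libraries or KMT2D mutant replicates 1 and 3, and that of SPIB without KMT2D mutant replicate 3.

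EBF1 and TCF3, the factors named above as switching on the surrogate light chain genes, did not pass in any comparison, nor did PAX5. EBF1 was low, at 3.10, 1.49, 4.18 and 4.59 CPM in WT, EZH2 mutant, KMT2D mutant and double mutant, PAX5 stood at 187, 163, 147 and 158, and TCF3 at 641, 540, 561 and 528. In the double mutant 0 of the 25 rose and 4 fell against WT (median -0.21, 23.7% of all), among them LEF1 (log2 change -0.82, SE 0.15), POU2AF1, the octamer co-activator (log2 change -0.54, SE 0.12), and IRF4 (log2 change -0.47, SE 0.13), a call lost without WT replicate 2. Against the EZH2 mutant 0 rose and 2 fell, POU2AF1 (log2 change -0.54, SE 0.13) and ID3, an inhibitor of TCF3 (log2 change -0.65, SE 0.14), with a median of -0.03 (2.29% of all). The POU2AF1 call was lost under 10 of 17 alternatives, among them leaving out any library of the double or the EZH2 mutant, and the ID3 call under 3, without EZH2 mutant replicate 1, without double mutant replicate 3 and with only the 2 lines fitted. Against the KMT2D mutant 3 rose and 11 fell (median -0.09, 41.9% of all). LEF1 and POU2AF1 were among those that fell (log2 changes -1.08 and -0.73), and POU2F2 and SPIB among those that rose, by 1.35 and 1.43.

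Of 18 genes typical of pro-B and pre-B cells, 8 were tested. RAG1, RAG2, CD34, KIT and FLT3, which define the earliest stages, had 0 counts in all 11 libraries, and DNTT had 2 counts in all. In the EZH2 mutant 0 of the 8 rose and 5 fell (median -0.92, 32.3% of all genes passing), and 3 fell without WT replicate 3 or without EZH2 mutant replicate 1. CD99, an adhesion protein, fell from 303 ± 31.0 to 157.5 ± 16.3 CPM, a log2 change of -0.95 (SE 0.15, edgeR adjusted p = 9.6e-05). CXCR4, a chemokine receptor (log2 change -0.90, SE 0.23), and NEIL1, a DNA repair enzyme (log2 change -0.76, SE 0.17), fell too. IL7R, the interleukin 7 receptor of pro-B cells, fell from 11.5 ± 5.01 to 2.23 ± 3.16 CPM, a change of -1.97 (SE 0.59), a call lost without WT replicate 3 or EZH2 mutant replicate 1. The call of CXCR4 was also lost without EZH2 mutant replicate 1.

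In the KMT2D mutant 1 of the 8 stage genes rose and 0 fell (median 0.23, 7.66% of all). It was CD9, a tetraspanin of B-cell precursors, at 1.19 ± 1.06 CPM in WT and 10.4 ± 0.844 in the KMT2D mutant, a log2 change of 2.90 (SE 0.53). CD9 entered the test through the KMT2D mutant libraries alone. Its means in WT, EZH2 mutant and double mutant (1.19, 0.512 and 0.639 CPM) lay under the minimum of 4.62 CPM. Its calls in comparisons with the KMT2D mutant are therefore a description only. In the double mutant CD9 had 3 counts in all, 17.9-fold below the KMT2D mutant (counting interval 5.89 to 88.5). Against WT 0 rose and 2 fell in the double mutant, CD99 (log2 change -0.47, SE 0.12) and IL7R (log2 change -1.63, SE 0.47), with a median of -0.49 (23.7% of all), and the IL7R call was lost without WT replicate 3 or double mutant replicate 2 or 3. In that comparison 4 fell with upper-quartile factors, 5 with no filter, with only the groups compared or without either EZH2 mutant library, and 1 without double mutant replicate 3. Between double mutant and EZH2 mutant none of the 8 passed edgeR's test (median 0.38, 2.29% of all), 3 had an unadjusted p under 0.05 and DESeq2 called 0. Against the KMT2D mutant 0 rose and 6 fell (median -0.77, 41.9% of all), IL7R (log2 change -2.58, SE 0.44) and CXCR4 (log2 change -0.95, SE 0.20) among them.

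The immunoglobulin and antibody list gave 2 tested genes of 17. UNG, a DNA glycosylase that removes uracil during antibody diversification, fell in the EZH2 mutant (log2 change -1.08, SE 0.21) from 103 to 47.0 CPM, and the KMT2D mutant and the double mutant had 77.5 and 80.3 CPM. JCHAIN, the joining chain of secreted IgM and IgA, passed in no comparison, with 44.4 ± 39.7 CPM in the 2 EZH2 mutant libraries. Neither passed edgeR's test between the KMT2D mutant and WT (1 had an unadjusted p under 0.05, and 7.66% of all genes passed) or between the double mutant and WT (0, and 23.7%), and DESeq2 called 0 in both. For the interaction of the 2 mutations, which 3.02% of all tested genes passed, 1 of the 13 signalling genes was lower, CD79B, 2 of the 25 factors were higher and 2 lower, 0 of the 8 stage genes passed (2 at an unadjusted p under 0.05, and 1 by DESeq2), and 1 of the 2 antibody genes, UNG, was higher, by 1.14 (SE 0.27).

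**Figure D4:**
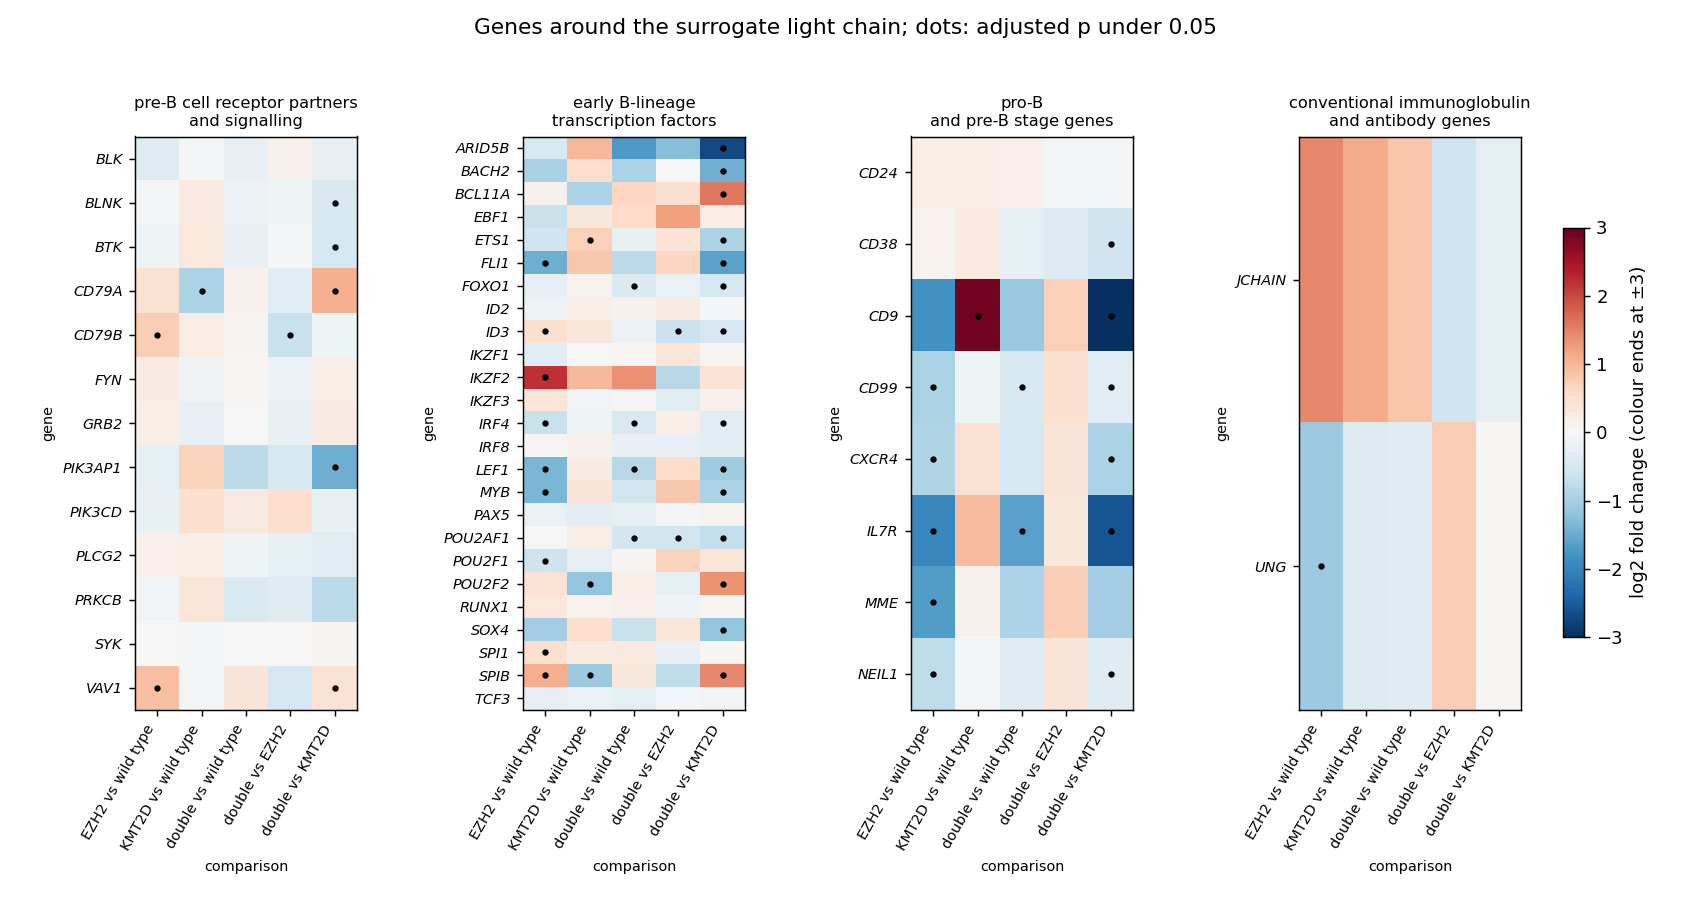
Fitted log2 fold changes (colour, ending at ± 3) of the tested genes of the 4 lists in the 5 pairs of lines, with a dot where the edgeR adjusted p is under 0.05. In the KMT2D mutant 1 stage gene, CD9, carries a dot and is red, and 5 of 8 stage genes are blue with a dot in the EZH2 mutant. CD9 entered the test through the KMT2D mutant libraries alone.

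The genes whose log2 CPM followed each light chain-like gene most closely were taken from 6516 tested genes with a mean of at least 10 CPM, by Pearson's r over the 11 libraries. IGLL5 was followed most closely by MDS2 (r = 0.992), a gene named for a myelodysplastic syndrome translocation, at 229, 50.4, 428 and 57.7 CPM in WT, EZH2 mutant, KMT2D mutant and double mutant. Next came MSI2, an RNA-binding protein, OFD1, a centriole protein, SAT1, a polyamine acetyltransferase, and the long non-coding RNA LINC00494 (r = 0.980), the last at 14.2, 3.03, 34.0 and 3.24 CPM. For VPREB1 the 5 genes were CHI3L2, LINC00926, ADA2, KANK1 and LSM10, with r from 0.961 to 0.975. LINC00926 had 11.7, 4.53, 35.7 and 3.41 CPM in the 4 lines, the same order as VPREB1. For VPREB3 they were SETD1A, PTOV1-AS2, CD79A, P2RX5 and MIGA2, with r from 0.971 to 0.991, and CD79A and PTOV1-AS2 belong to the chromosome 19 arm described above. These correlations rest on 4 lines and shared libraries and are given as a ranking only.

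**Figure D5:**
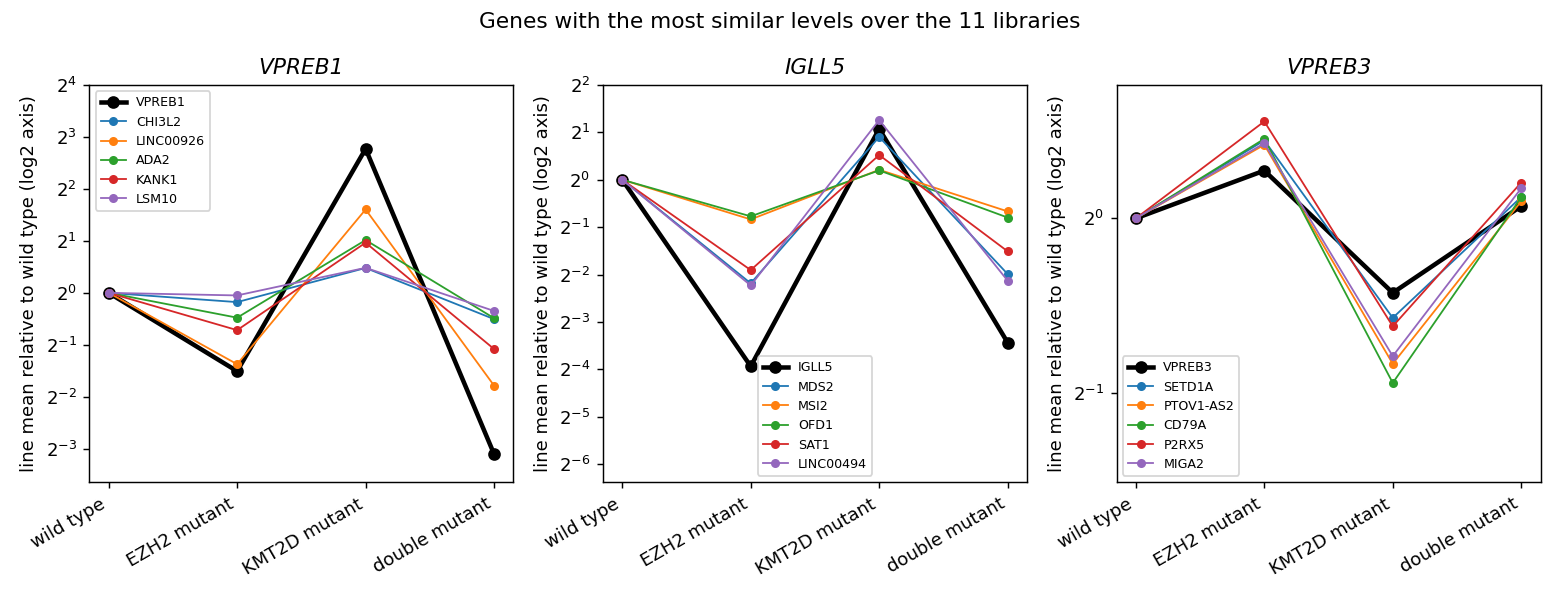
Mean level in each line relative to WT (log2 axis) of VPREB1, IGLL5 and VPREB3 (black) and of the 5 genes most like each over the 11 libraries (colours). The genes like VPREB1 and IGLL5 vary over a narrower range than they do: LSM10 and CHI3L2 stay within 1 log2 unit of WT, and MDS2 and LINC00494 come closest to the range of IGLL5.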

How the data were processed

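RNA of 4 OCI-Ly7 lines was measured by MARS-seq, per the labels' protocols. The values are counts per gene deposited by the authors, whose table calls them corrected without saying for what. Per the submitters' processing notes, Trim Galore 0.6.0, cutadapt 1.15, FastQC, STAR 2.7.0f and DESeq2 were used, with no roles stated; the counting program, build, annotation and strand are not given in the sources used here. Columns marked DM were read as the double mutant.

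The 4 genes and the gene lists were chosen with earlier results of these data known. A few listed genes are not reported here and were left out of the lists and counts. Counts were fitted in R 4.3.3 with edgeR 4.0.16 (filterByExpr, minimum count 10, 8813 of 28278 genes kept; TMM factors; robust quasi-likelihood test with 1 term per line over all 11 libraries). P-values were adjusted by Benjamini-Hochberg over all tested genes, with 0.05 as the threshold for "rose", "fell" and "passed". Libraries held 1118710 to 3107871 counts. Ratios of summed counts have exact binomial 95% intervals, which cover counting error only. Library overlap was judged on normalised CPM, and log2 CPM used a prior count of 2.

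Named genes are the 4 genes, EZH2 and KMT2D, up to 4 members of each list per comparison with the smallest adjusted p among those that passed, the 5 genes most like each of the 3 tested genes (mean of at least 10 CPM), and the nearest tested neighbours. Genes named beyond that rule (EBF1, PAX5, TCF3, IKZF2, ARID5B, SYK, JCHAIN, list genes at 0, and VAV1 between double and KMT2D mutant) were chosen after their values were seen. Alternatives were DESeq2 1.42.0, scaling by RLE or by upper quartiles, all 15090 genes with a count, a fit to only the groups compared, a block for the replicate number, and each library left out in turn. Tables came from pandas 2.3.3 and numpy 2.4.6 under Python 3.11.15, figures from matplotlib 3.10.9.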

Additional observations from a re-analysis of the deposited data

Results flagged for a closer look

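VPREB1 stood 7.23-fold higher in the KMT2D mutant than in WT, but at 0.295 times the EZH2 mutant in the double mutant. The counting interval of the second ratio, 0.0477 to 1.38, includes no difference. Libraries did not overlap in either comparison, but the lower direction in the EZH2 Y646N background is not settled by so few counts. The difference between the 2 ratios was not tested, because VPREB1 was chosen for it, and the second ratio rests on 3 and 6 counts. Among the listed genes, the interaction of the 2 mutations passed edgeR's test for 6. The interaction sets the log2 difference between double and EZH2 mutant against that between KMT2D mutant and WT. It was negative for CD79B (-0.88), ID3 (-0.98) and POU2AF1 (-0.73), and positive for POU2F1 (0.98), POU2F2 (0.90) and UNG (1.14). Each genotype is a single line, so an effect of KMT2D loss cannot be told apart from other differences between the lines. POU2F2 lies on the long arm of chromosome 19, whose tested genes had a median interaction of 0.71, and the place of that shift was not tested. The calls depended on single libraries. UNG lost its call under 5 of 16 alternatives, without WT replicate 3, EZH2 mutant replicate 1, KMT2D mutant replicate 1 or 3, or double mutant replicate 3. CD79B lost it under 8 and POU2AF1 under 7, any double mutant library among them, POU2F2 under 8, any WT or KMT2D mutant library among them, and POU2F1 under 11, the replicate block and DESeq2 among them. ID3 kept its call under all 16.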

How the results depend on the processing

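Among the named genes and the counts that were rerun, no alternative reversed a called value, and VPREB1 and IGLL5 kept their directions under all those run. Upper-quartile factors shifted the median of all genes by -0.16 in the EZH2 mutant and -0.11 in the double mutant, both against WT, and by -0.15 between double mutant and KMT2D mutant, where VPREB3 then stood at 0.35; the split of passing genes became 1015 higher and 1762 lower, 728 and 1318, and 1342 and 2300. For the double mutant against the EZH2 mutant it became 88 and 116. With these factors 10 list genes passed for the double mutant against WT. Without a filter, 9 list genes passed for the KMT2D mutant, 11 for the double mutant against WT and 6 of 381 genes against the EZH2 mutant, and 482 genes passed for the interaction. With only the groups compared, 8 list genes passed for the KMT2D mutant, and 92 genes and 0 list genes passed between double and EZH2 mutant. Leaving out 1 library gave 1779 to 2874 passing genes for the EZH2 mutant (lowest without its replicate 1), 339 to 802 for the KMT2D mutant, 1381 to 2286 for the double mutant against WT, 99 to 242 against the EZH2 mutant and 147 to 309 for the interaction; list genes ranged from 11 to 18, 3 to 6, 6 to 10, 0 to 5 and 1 to 5 in the same order. VPREB1 ranged from -1.74 to -1.29 in the EZH2 mutant, from -4.13 to -2.59, -2.67 to -1.10 and -6.93 to -5.40 in the double mutant against WT, EZH2 mutant and KMT2D mutant, and from -5.47 to -3.90 for the interaction, with the extremes of the last 4 set by double mutant replicates 2 and 3, because its counts are few. The VPREB3 interaction ranged from 0.061 to 0.41. Over all lines, deviations of same-numbered replicates had a median correlation of -0.0252 (-0.289 to 0.376, 15 pairs). For other pairs it was -0.0106 (-0.376 to 0.289, 30 pairs), so the numbers were not taken as pairs. Same-numbered pairs were all positive between KMT2D and double mutant (0.287, 0.206 and 0.0662) and between WT and EZH2 mutant (0.376 and 0.216). Between the other lines they were mixed or negative. The libraries with the lowest total of each line were WT replicate 1, EZH2 mutant replicate 1, KMT2D mutant replicate 2 and double mutant replicate 2. Correlations among these were all positive, from 0.206 to 0.376, and the place of depth in them was not tested. With 2 libraries, the EZH2 mutant deviations mirror each other, so its 2 values with WT are not separate evidence. With the replicate block, 1 list gene passed between double and EZH2 mutant. Depth limits IGLL1 and, in both EZH2 Y646N lines, VPREB1.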

Other observations

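IGLL3P, a pseudogene related to IGLL1, had 0 counts in each WT library, 0 and 1 in the EZH2 mutant, 2, 0 and 2 in the KMT2D mutant and 7, 0 and 2 in the double mutant, whose first library holds most of its counts. Among list genes too low to test, LYN, a kinase of the receptor, had 34 counts over the 11 libraries, TCF12 62, CRLF2 23, ARPP21 18, RASGRP3 9 and TCF4 4.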
